A study of Mus musculus with 8 samples.

Results

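The mouse mitochondrial genome carries 13 protein genes, 2 ribosomal RNA genes and 22 transfer RNA genes. These 37 genes, of 55487 genes in each deposited count table, are all those on the mitochondrial chromosome, so no measured value decided which genes belong. The set itself was chosen with earlier results of these data known. They were followed in RNA sequencing libraries of 2 kinds of conventional dendritic cell (cDC) from the spleen, cDC1 and cDC2, both of which show antigen to T cells. The 8 libraries form 4 groups of 2, numbered replicate 2 and replicate 3. Wild-type cDC1 and wild-type cDC2 are joined by cDC1 of the genotype Zeb2 -165(d1+2+3), called Zeb2 mutant here, and cDC2 of the genotype Irf8 +32-/-, called Irf8 mutant. The genotypes name enhancers of Zeb2 and Irf8, genes of transcription factors that act in dendritic cells. All groups were C57BL/6 cells, sorted and otherwise untreated, at 100000 cells per sample. The Zeb2 mutant is represented by cDC1 and the Irf8 mutant by cDC2, so neither mutant can be followed across both cell types here. The labels give no age, no sex and no account of what a replicate is, so the p-values speak only of the spread among these libraries, which may be technical.

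Mitochondrial DNA is a small circle that encodes core subunits of the respiratory chain and the RNAs needed to translate them. Both of its strands are transcribed into long precursor RNAs, which are cut at the transfer RNAs that lie between the other genes. Most of the messenger and ribosomal RNAs released in this way receive short poly(A) tails. The nucleus encodes the remaining subunits of the chain and every protein that copies, transcribes and processes the mitochondrial genome. Conventional dendritic cells, like other cells, build their respiratory complexes from both sources.

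Library totals ran from 49380686 to 58611821 counts. Levels are given as CPM, the count scaled to a fixed library size with TMM factors that correct for library composition. Sums over several genes are given as CPM of the library total, without these factors. Changes are log2 fold changes ± SE from edgeR's quasi-likelihood test with Benjamini-Hochberg adjustment over 20631 tested genes. A gene was called at an adjusted p under 0.05. The 7 cDC1 markers summed to 5378 to 6437 CPM in cDC1 and 186 to 213 CPM in cDC2, and the 7 cDC2 markers to 21.7 to 29.7 CPM in cDC1 and 1885 to 2248 CPM in cDC2, as the labels say. Irf8 stood at 126 and 104 CPM in wild-type cDC2 and at 147 and 120 CPM in Irf8 mutant cDC2, and Zeb2 at 2.09 and 2.10 CPM in the wild-type cDC1 libraries against 2.23 and 3.54 CPM in the Zeb2 mutant ones. Both genotypes name enhancers, so neither gene's level checks a deletion. The wild-type cDC1 libraries stood apart from each other: without replicate 3, the genes called between Zeb2 mutant and wild-type cDC1 rose from 14 to 1078.

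Copies of mitochondrial DNA lie in the nuclear genome, and how near they are decides whether a read can be placed. Of the 37 genes, 7 had an annotated copy on chromosome 1 at 99% identity or more over the aligned bases, and 5 of these 7 copies were identical over that stretch. The sequences below, from GENCODE M21 on GRCm38, show how far a read of a gene can be told from a read of its copy. They are the first 150 bases of each transcript, 5′ to 3′, with capitals at bases that differ between a gene and its copy. The first pair is cytochrome oxidase subunit mt-Co3 (chrMT:8607-8756, plus strand) and Gm28437 (chr1:24613822-24613971, minus strand), with no capital because no base differs. The second pair is complex I subunit mt-Nd3 (chrMT:9459-9608, plus strand) and Gm28438 (chr1:24612970-24613119, minus strand). The third pair is cytochrome oxidase subunit mt-Co1 (chrMT:5328-5477, plus strand) and Gm13340 on chromosome 2 (chr2:22589498-22589647, minus strand).
mt-Co3: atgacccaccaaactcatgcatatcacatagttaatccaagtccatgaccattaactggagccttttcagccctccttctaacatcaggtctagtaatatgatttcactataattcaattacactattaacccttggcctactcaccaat
Gm28437: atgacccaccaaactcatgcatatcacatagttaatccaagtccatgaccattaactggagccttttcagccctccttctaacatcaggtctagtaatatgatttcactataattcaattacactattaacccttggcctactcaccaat
mt-Nd3: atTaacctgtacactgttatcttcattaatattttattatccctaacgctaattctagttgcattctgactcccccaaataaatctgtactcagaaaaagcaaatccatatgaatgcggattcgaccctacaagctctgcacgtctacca
Gm28438: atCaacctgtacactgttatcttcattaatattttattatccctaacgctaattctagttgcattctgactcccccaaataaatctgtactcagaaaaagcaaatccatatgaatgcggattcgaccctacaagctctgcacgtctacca
mt-Co1: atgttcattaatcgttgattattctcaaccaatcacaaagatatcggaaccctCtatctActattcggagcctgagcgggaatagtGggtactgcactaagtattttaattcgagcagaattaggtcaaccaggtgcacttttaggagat
Gm13340: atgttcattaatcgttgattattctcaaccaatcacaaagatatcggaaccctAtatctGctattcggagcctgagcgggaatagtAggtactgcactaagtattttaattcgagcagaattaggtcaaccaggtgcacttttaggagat

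Counted from 1 at the 5′ end of the mitochondrial transcript, with its own base first, the window of mt-Co1 differs from Gm13340 at C54A, A60G and G87A, and all 1545 bases at 37 positions. That of mt-Nd3 differs from Gm28438 at T3C alone, which is also the only difference over the 345 bases compared. A read of 150 bases from mt-Co3 therefore has no letter that separates it from Gm28437 over the 783 aligned bases.

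Some mitochondrial genes also share bases with each other. The stretch from chrMT:7907-7989 (plus strand) holds the end of mt-Atp8 and the start of mt-Atp6, subunits of the ATP synthase, and chrMT:10147-10193 (plus strand) holds the end of mt-Nd4l and the start of mt-Nd4, subunits of complex I. Capitals mark the bases that belong to both genes, 43 in the first pair and 7 in the second. The library kit does not mark strand, and the strand setting of the counting is not given in the sources used here.
mt-Atp8 and mt-Atp6: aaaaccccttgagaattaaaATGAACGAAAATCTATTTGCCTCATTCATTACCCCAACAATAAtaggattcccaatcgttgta
mt-Nd4l and mt-Nd4: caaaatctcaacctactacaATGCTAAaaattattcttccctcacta

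Mitochondrial transcripts made up a larger share of the RNA counted in cDC1 than in cDC2. Their share of all counts was 0.301% and 0.297% in wild-type cDC1, 0.325% and 0.316% in Zeb2 mutant cDC1, 0.0578% and 0.0767% in wild-type cDC2, and 0.0769% and 0.103% in Irf8 mutant cDC2. The lowest cDC1 library lay above the highest cDC2 library, and the group means differed 4.44-fold between the wild-type cell types and 3.56-fold between the mutant ones. Protein genes held most of these counts, 0.243% ± 0.00470 of all counts in wild-type cDC1 and 0.0588% ± 0.0108 in wild-type cDC2 (SD, n = 2), a ratio of 4.12. For the ribosomal RNA genes the ratio was 6.64, from 0.0558% ± 0.00744 to 0.00841% ± 0.00258 (SD, n = 2). A share describes a library and carries no test here, and in bulk RNA fewer cells of a type and less RNA per cell cannot be told apart.

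**Figure D1:**
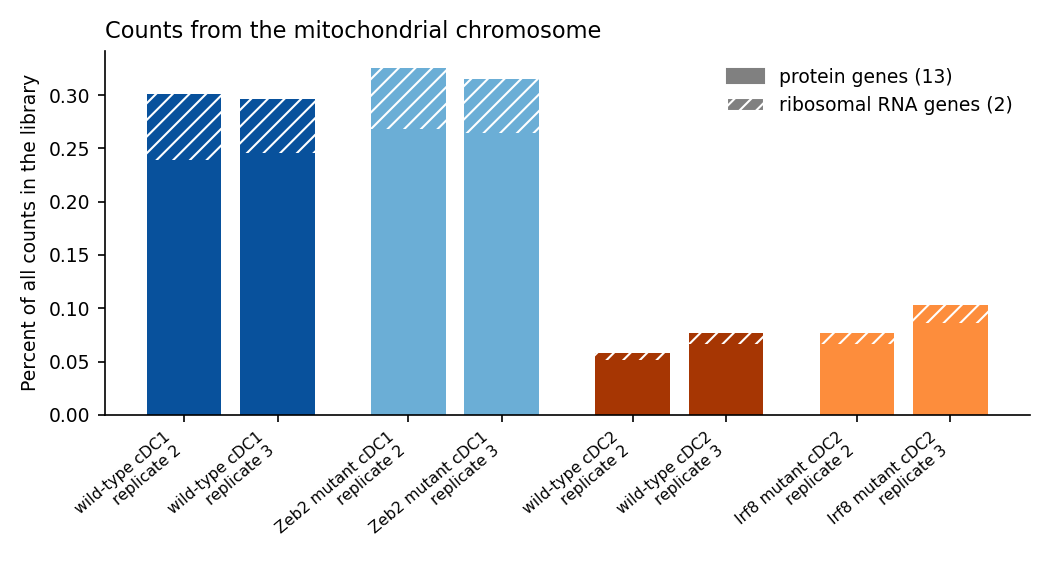
Percent of all counts that fell on the mitochondrial chromosome in each of the 8 libraries, with plain bars for the 13 protein genes and hatched bars for the 2 ribosomal RNA genes; the transfer RNA genes are too few in counts to see. The 4 cDC1 bars reach 0.297% to 0.325% and the 4 cDC2 bars 0.0578% to 0.103%.

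Of the 15 protein and ribosomal RNA genes, 13 were called higher in wild-type cDC1 than in wild-type cDC2 and 0 lower, where 14.2% of all tested genes were called higher and 15.9% lower. The same 13 were called higher in Zeb2 mutant cDC1 than in Irf8 mutant cDC2, against 12.8% of all tested genes called higher and 15% lower. The exceptions in both comparisons were mt-Atp8 and mt-Nd4l, the sparsest of the 15. For the 13 called genes the log2 fold change ran from 1.77 to 3.05 in the wild types and from 1.31 to 1.94 in the mutants. In 13 of the 15 genes all 4 cDC1 libraries lay above all 4 cDC2 libraries, as did 19.6% of all tested genes. The median of the 15 was log2 2.14 between the wild types, at or above which lay 5.06% of all tested genes, and 1.65 between the mutants, with 6.8% at or above it. The comparisons have no library in common but come from the same fit, with the same filter and a shared estimate of the spread.

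Between the wild types the 2 ribosomal RNAs had larger fold changes than any protein gene but mt-Nd3, while between the mutants mt-Rnr1 had the smallest of the 13 called genes. The small-subunit RNA mt-Rnr1 (chrMT:70-1024) stood at 26.6 and 17.3 CPM in wild-type cDC1, at 15.6 and 18.3 CPM in Zeb2 mutant cDC1, 2.49 and 4.17 CPM in wild-type cDC2 and 4.14 and 9.60 CPM in Irf8 mutant cDC2. Every cDC1 library was above every cDC2 library, and the wild-type means differed 6.59-fold (log2 2.72 ± 0.41, adjusted p = 0.00058 in edgeR's quasi-likelihood test). The large-subunit RNA mt-Rnr2 (chrMT:1094-2675) stood at 592 and 464 CPM in wild-type cDC1, at 522 and 481 CPM in Zeb2 mutant cDC1, 66.8 and 100.2 CPM in wild-type cDC2 and 107 and 158 CPM in Irf8 mutant cDC2. It too did not overlap, with a 6.32-fold difference between the wild types (log2 2.66 ± 0.24, adjusted p = 1.75e-05). Between the mutant groups the differences were 2.47-fold for mt-Rnr1 (adjusted p = 0.0291) and 3.79-fold for mt-Rnr2 (adjusted p = 0.000143). The call of mt-Rnr1 between the mutants was lost without Zeb2 mutant replicate 2 (adjusted p = 0.0789), without Zeb2 mutant replicate 3 (0.141) and without Irf8 mutant replicate 2 (0.124). The libraries held 16.5 to 33.4 counts of mt-Rnr2 for each count of mt-Rnr1. The cDNA was primed on poly(A), so this is a ratio of counts and not of RNA amounts.

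**Figure D2:**
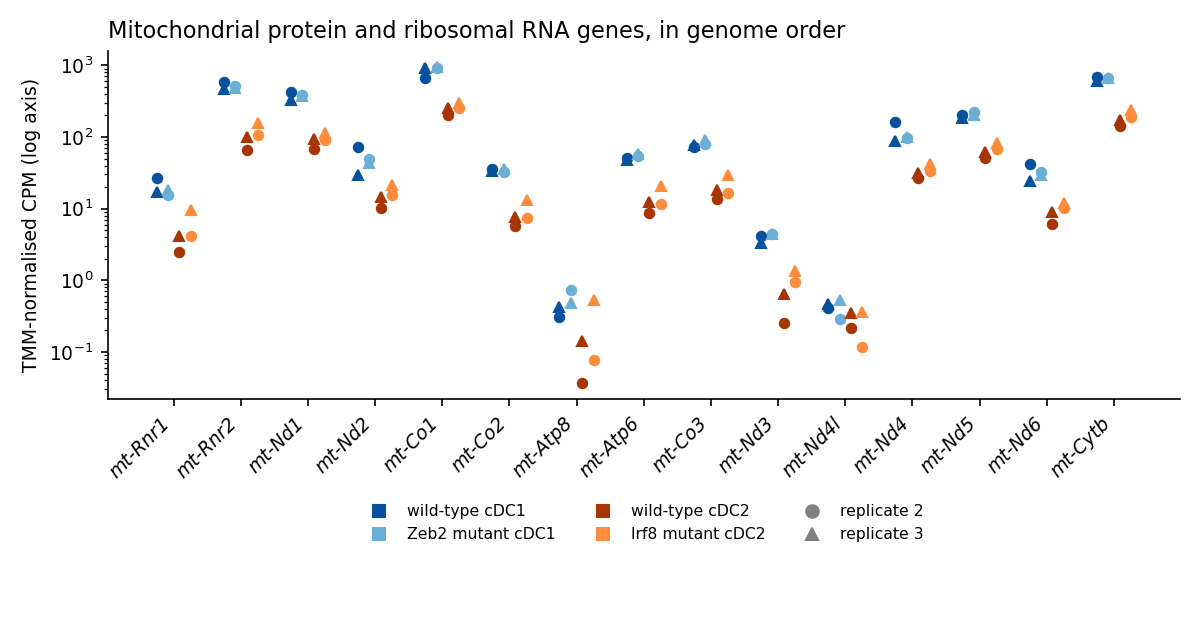
TMM-normalised CPM (log axis) of the 15 mitochondrial protein and ribosomal RNA genes in genome order, 1 point per library, coloured by group, with circles for replicate 2 and triangles for replicate 3. The blue cDC1 points lie above the brown and orange cDC2 points for 13 genes, and mt-Atp8 and mt-Nd4l, under 1 CPM everywhere, overlap.

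Complex I, which takes electrons from NADH, draws 7 of its subunits from this genome. Its membrane anchor subunit mt-Nd1 (chrMT:2751-3707) stood at 427 and 325 CPM in wild-type cDC1, at 382 and 369 CPM in Zeb2 mutant cDC1, 69.0 and 93.4 CPM in wild-type cDC2 and 91.0 and 115 CPM in Irf8 mutant cDC2. The cell types did not overlap, and the wild types differed 4.63-fold (log2 2.21 ± 0.20, edgeR adjusted p = 1.5e-05). Subunit mt-Nd5 (chrMT:11742-13565), part of the proton-pumping arm, stood at 203 and 182 CPM in wild-type cDC1, at 222 and 203 CPM in Zeb2 mutant cDC1, 51.3 and 61.5 CPM in wild-type cDC2 and 68.1 and 81.6 CPM in Irf8 mutant cDC2. Its 3.41-fold difference between the wild types was the smallest of the 13 called genes (log2 1.77 ± 0.15, adjusted p = 1.09e-05). The largest was that of mt-Nd3 (chrMT:9459-9806), at 4.11 and 3.35 CPM in wild-type cDC1, at 4.47 and 4.40 CPM in Zeb2 mutant cDC1, 0.254 and 0.639 CPM in wild-type cDC2 and 0.943 and 1.37 CPM in Irf8 mutant cDC2. This 8.35-fold difference (log2 3.05 ± 0.45, adjusted p = 0.000516) rests on 14 and 36 counts in the wild-type cDC2 libraries. Between the mutants it was 3.84-fold (adjusted p = 0.00591).

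The remaining complex I genes include those on which the 2 wild-type cDC1 libraries differed most. Subunit mt-Nd2 (chrMT:3914-4951) stood at 72.3 CPM in wild-type cDC1 replicate 2 and 29.8 CPM in replicate 3, a ratio of 2.43, against 50.1 and 43.2 CPM in Zeb2 mutant cDC1. In wild-type cDC2 it stood at 10.3 and 14.6 CPM and in Irf8 mutant cDC2 at 15.4 and 21.1 CPM, below every cDC1 library (wild types 4.10-fold apart, log2 2.03 ± 0.37, edgeR adjusted p = 0.00231). Between the mutants mt-Nd2 differed 2.56-fold (adjusted p = 0.0189), a call lost without Zeb2 mutant replicate 2 (adjusted p = 0.148), Zeb2 mutant replicate 3 (0.0977) or Irf8 mutant replicate 2 (0.138). Subunit mt-Nd4 (chrMT:10167-11544) stood at 160.2 and 87.0 CPM in wild-type cDC1, at 96.8 and 101 CPM in Zeb2 mutant cDC1, 26.7 and 31.2 CPM in wild-type cDC2 and 33.8 and 42.1 CPM in Irf8 mutant cDC2. Its wild-type groups differed 4.27-fold (log2 2.09 ± 0.25, adjusted p = 0.00013). Subunit mt-Nd6 (chrMT:13552-14070) is the protein gene that lies on the minus strand, and it shares 14 bases with the end of mt-Nd5. It stood at 42.5 and 24.2 CPM in wild-type cDC1, at 32.5 and 29.8 CPM in Zeb2 mutant cDC1, 6.07 and 9.07 CPM in wild-type cDC2 and 10.1 and 11.9 CPM in Irf8 mutant cDC2 (wild types 4.40-fold apart, adjusted p = 0.000243). Without strand, reads from mt-Nd6 and reads from the opposite strand at this place cannot be told apart. The short gene mt-Nd4l (chrMT:9877-10173) had 6 to 29 counts per library and did not pass the test, at 0.438 ± 0.033 CPM in wild-type cDC1 against 0.287 ± 0.097 CPM in wild-type cDC2 (SD, n = 2, adjusted p = 0.612).

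Complexes III and IV, which pass electrons on to oxygen, gave the highest levels of the protein genes. Cytochrome b, mt-Cytb (chrMT:14145-15288), the mitochondrial subunit of complex III, stood at 679 and 609.8 CPM in wild-type cDC1, at 669 and 664 CPM in Zeb2 mutant cDC1, 144 and 175 CPM in wild-type cDC2 and 188 and 236 CPM in Irf8 mutant cDC2. Its groups were well apart, 4.04-fold between the wild types (log2 2.01 ± 0.16, edgeR adjusted p = 6.11e-06) and 3.14-fold between the mutants (adjusted p = 2.17e-05). The catalytic subunit of cytochrome oxidase, mt-Co1 (chrMT:5328-6872), stood at 674 and 918 CPM in wild-type cDC1, at 920.1 and 963 CPM in Zeb2 mutant cDC1, 203 and 253 CPM in wild-type cDC2 and 251 and 294 CPM in Irf8 mutant cDC2. The cell types differed 3.49-fold in the wild types (log2 1.80 ± 0.18, adjusted p = 3.11e-05) and 3.46-fold in the mutants (log2 1.79 ± 0.18). Subunit mt-Co2 (chrMT:7013-7696), which receives the electrons from cytochrome c, stood at 36.1 and 33.7 CPM in wild-type cDC1, at 32.2 and 36.045 CPM in Zeb2 mutant cDC1, 5.67 and 7.76 CPM in wild-type cDC2 and 7.39 and 13.3 CPM in Irf8 mutant cDC2. Subunit mt-Co3 (chrMT:8607-9390) stood at 73.3 and 77.9 CPM in wild-type cDC1, at 79.6 and 89.5 CPM in Zeb2 mutant cDC1, 13.5 and 18.2 CPM in wild-type cDC2 and 16.3 and 29.1 CPM in Irf8 mutant cDC2. These 2 subunits differed 5.20-fold and 4.76-fold between the wild types (adjusted p = 8.32e-05 and 7.87e-05), with no overlap of cDC1 and cDC2 libraries.

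The ATP synthase, complex V, takes 2 subunits from the mitochondrial genome. The proton channel subunit mt-Atp6 (chrMT:7927-8607) stood at 50.9 and 48.5 CPM in wild-type cDC1, at 54.8 and 57.9 CPM in Zeb2 mutant cDC1, 8.60 and 12.4 CPM in wild-type cDC2 and 11.5 and 21.03 CPM in Irf8 mutant cDC2. It differed 4.74-fold between the wild types (log2 2.24 ± 0.27, edgeR adjusted p = 0.000125) and 3.46-fold between the mutants (adjusted p = 0.000523). Its neighbour mt-Atp8 (chrMT:7766-7969), which shares a messenger RNA with mt-Atp6, had 18 and 25 counts in wild-type cDC1, 42 and 26 in Zeb2 mutant cDC1, 2 and 8 in wild-type cDC2 and 4 and 26 in Irf8 mutant cDC2. It did not pass the test between the wild types (log2 2.02 ± 1.01, adjusted p = 0.167), at 2 and 8 counts in its wild-type cDC2 libraries. It entered the test through cDC1, since 0 of the 2 wild-type cDC2 libraries reached the 0.181 CPM that the filter on low counts required in 2 libraries.

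The transfer RNA genes were close to absent from these libraries, at 422 counts over all 8. They are 59 to 75 bases long, shorter than a read of 150 bases, and 11 of the 22 had no count in any library. The proline transfer RNA mt-Tp (chrMT:15356-15422, minus strand), the last gene before the control region, held 342 of these counts and is shown whole for that reason.
mt-Tp: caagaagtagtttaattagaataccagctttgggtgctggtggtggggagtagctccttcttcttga

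It had 84 and 69 counts in wild-type cDC1, 79 and 67 in Zeb2 mutant cDC1, 10 and 10 in wild-type cDC2 and 9 and 14 in Irf8 mutant cDC2, so every cDC1 library lay above every cDC2 library. The wild types differed 7.32-fold (log2 2.86 ± 0.52, edgeR adjusted p = 0.00197) and the mutants 5.65-fold (adjusted p = 0.0042), but mt-Tp entered the test only through libraries where it was high. The other 21 transfer RNA genes summed to 80 counts, and none of them passed the filter. The next were the glutamine transfer RNA mt-Tq, with 30 counts over all libraries and at most 13 in one, and mt-Te, mt-Tc and mt-Ts1, the transfer RNAs of glutamate, cysteine and serine, with 11, 9 and 9 counts, and mt-Tn, that of asparagine, with 8. All 6 of these named transfer RNAs lie on the minus strand, and without strand their reads cannot be told from reads of the opposite strand.

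**Figure D3:**
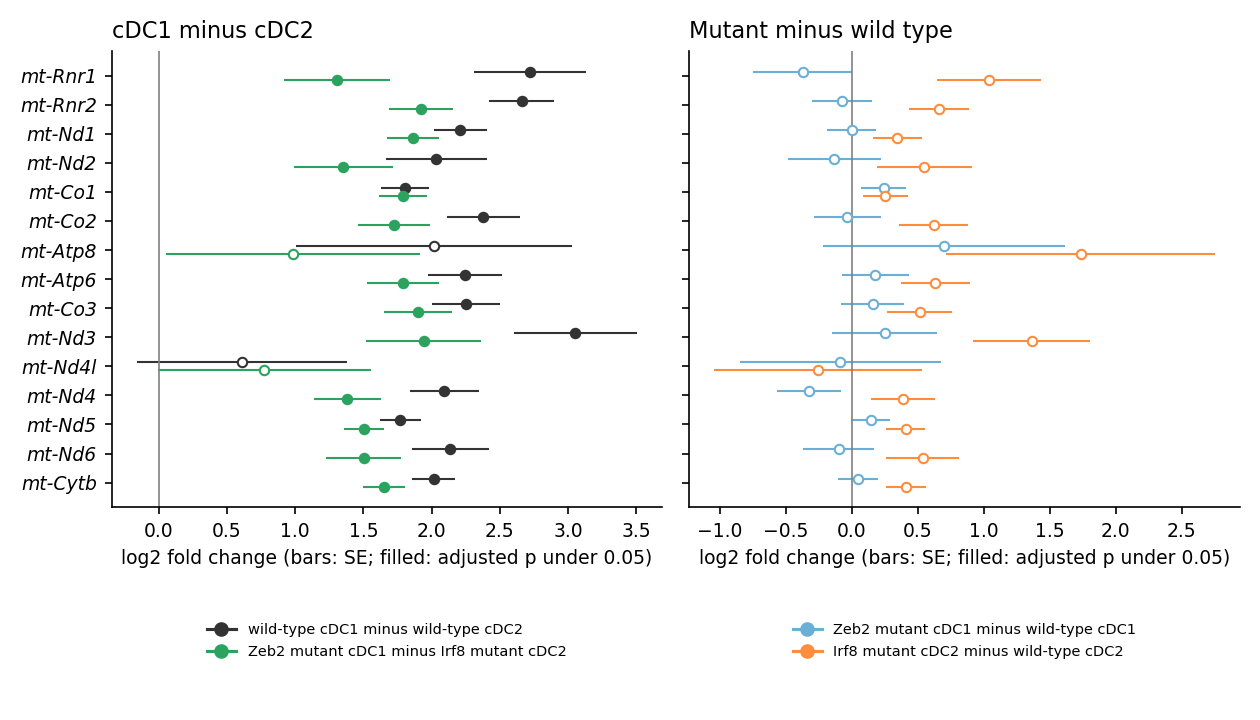
Log2 fold changes with SE bars of the 15 protein and ribosomal RNA genes, cDC1 minus cDC2 on the left and mutant minus wild type on the right; filled points have an adjusted p under 0.05. Filled points run from 1.77 to 3.05 in the wild types and from 1.31 to 1.94 in the mutants, and no point is filled on the right.

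The same few genes led the mitochondrial counts in both cell types. Counts of different genes are compared here as TMM-normalised CPM per kilobase of transcript. How reads that match a nuclear copy or an overlapping gene were placed is not known. The order is therefore one of counts and not of transcript amounts. In wild-type cDC1 the order began with mt-Cytb (563 ± 42.9), mt-Co1 (515 ± 112), mt-Nd1 (393 ± 75.2) and mt-Rnr2 (334 ± 57.3) (SD, n = 2). In wild-type cDC2 it began with mt-Co1 (148 ± 22.8), mt-Cytb (139.5 ± 19.5), mt-Nd1 (84.9 ± 18.0) and mt-Rnr2 (52.8 ± 14.9). The first 2 of each order lay closer than the SD of mt-Co1, so their places cannot be told apart. The lowest 3 in both were mt-Nd3, mt-Atp8 and mt-Nd4l, with mt-Nd4l last in wild-type cDC1 and mt-Atp8 last in wild-type cDC2. Together mt-Co1, mt-Cytb and mt-Rnr2 took 63.9% to 70.6% of mitochondrial counts in every library. The 28 genes of the plus strand held 98.6% to 99.1% of them and the 9 genes of the minus strand the rest, most of it in mt-Nd6. The library kit does not mark strand, so this is a split by annotated gene and not by the strand of the RNA.

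The ribosomal share of the mitochondrial counts differed between cell types in the wild type. The ribosomal RNAs took 20.3% and 17.04% of mitochondrial counts in wild-type cDC1 and 11.4% and 13.3% in wild-type cDC2, which did not overlap. In the mutants they took 17.4% and 16.3% in Zeb2 mutant cDC1 and 13.8% and 16.2% in Irf8 mutant cDC2, a narrow gap. The share of mt-Co1 was 22.2% in wild-type cDC1 replicate 2 and 28.4% to 33.4% in the other 7 libraries, so that library accounts for the low end. These shares describe counts from cDNA primed on poly(A) and were not tested.

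Several mitochondrial genes had about as many counts on a nuclear copy as on the gene itself. The copy Gm28437 held 0.967 to 1.05 counts per count of mt-Co3 over the 8 libraries, Gm28661 held 0.961 to 1.11 per count of mt-Co2, and Gm10925 held 1.02 to 1.29 per count of mt-Atp6. These 3 copies are identical to their gene over the aligned 783, 681 and 678 bases, and nearly equal counts fell on either member. Gm28438, with 1 differing base, held 0.184 to 0.433 counts per count of mt-Nd3. Gm29216, which matches the last part of mt-Co1, held 0.0455 to 0.0737 per count of mt-Co1. Gm28439 is identical to the first 876 bases of mt-Nd4 and held 0.0451 to 0.0620 counts per count of it. Gm10222 held 0.6 to 2.25 per count of the sparse mt-Nd4l. The ratios thus did not follow identity over the aligned bases alone. How the authors' counting placed reads that match more than 1 gene is not given in the sources used here. Reads that were left out would be in neither count. The levels of these 7 genes are therefore uncertain, by an amount that the counts of their copies do not give.

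Of the 6 chromosome 1 copies on the list chosen for them, 6 were called higher in wild-type cDC1 and 5 in Zeb2 mutant cDC1 than in the matching cDC2, where 14.2% and 12.8% of all tested genes were. Their sequences are nearly those of the mitochondrial genes, so these calls are not a result apart from those of the genes. Gm28438 also entered the test through cDC1, with 6 and 8 counts in the wild-type cDC2 libraries. The copy Gm10222 of mt-Nd4l, which is not on that list, was called in neither (log2 2.20 ± 0.82, edgeR adjusted p = 0.0684 between the wild types and 0.355 between the mutants), and nor was mt-Nd4l. The median log2 fold change was 2.23 between the wild types and 1.77 between the mutants, where the median of all tested genes was 0.03 and -0.02. Gm28437 stood at 75.1 ± 3.18 CPM in wild-type cDC1 against 15.9 ± 3.58 CPM in wild-type cDC2 (SD, n = 2), 4.73-fold apart (edgeR adjusted p = 0.000113), beside the 4.76-fold of mt-Co3. The 7 copies summed to 6.03% to 8.90% of the mitochondrial counts. With them added, the mitochondrial share differed 4.47-fold between the wild-type cell types and 3.58-fold between the mutant ones, against 4.44-fold and 3.56-fold without them. The nearest annotated copy of mt-Cytb was 92.9% identical, that of mt-Rnr2 88.5% and that of mt-Nd1 76.6%, none was found for mt-Rnr1, and these 4 genes differed between cell types as well.

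**Figure D4:**
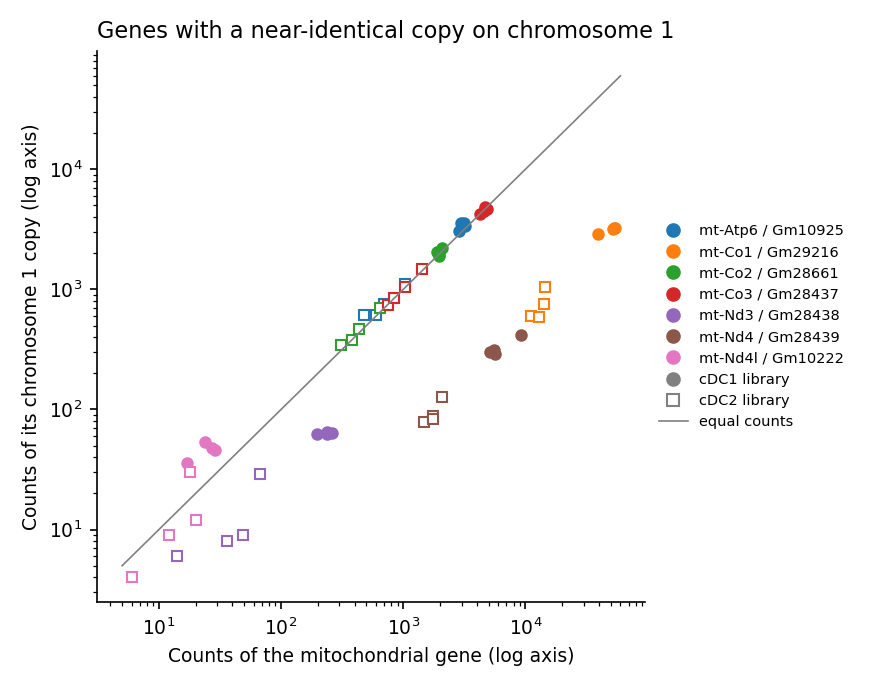
Counts of 7 mitochondrial genes (x axis, log) against the counts of their near-identical copy on chromosome 1 (y axis, log), 1 point per library, filled for cDC1 and open for cDC2, with a grey line at equal counts. Points of mt-Co2, mt-Co3 and mt-Atp6 lie along the line, with ratios of 0.961 to 1.29, and those of mt-Co1, mt-Nd3 and mt-Nd4 lie below it.

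In cDC1 no mitochondrial gene passed the test between the Zeb2 mutant and the wild type. Of the 15 genes 0 were called between Zeb2 mutant and wild-type cDC1 in edgeR, 0 had an unadjusted p under 0.05, and 0 were called in DESeq2. Of all tested genes 0.0679% were called and 10.5% had an unadjusted p under 0.05. The fitted log2 fold changes were positive for 7 genes and negative for 8, from -0.37 ± 0.38 (mt-Rnr1) to 0.70 ± 0.92 (mt-Atp8), and those of mt-Co2 and mt-Nd1 changed sign under another scaling and that of mt-Rnr2 with the length trend removed. The share of mitochondrial counts was 1.07 times that of the wild type. Since mt-Nd4 stood at 160.2 CPM in one wild-type cDC1 library and 87.0 CPM in the other, its call depended on the library: without wild-type cDC1 replicate 3 it was called lower in the mutant (log2 -0.66, adjusted p = 0.032), and the remaining wild-type library was then assumed to vary like the other groups.

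In cDC2 no mitochondrial gene passed the test between the Irf8 mutant and the wild type. Of the 15 genes 0 were called in edgeR and 0 in DESeq2, as 0% of all tested genes were called in edgeR. At an unadjusted edgeR p under 0.05 lay 7 of the 15, beside 6.36% of all tested genes. The libraries of the 2 groups did not overlap in 7 of the 15, beside 39.3% of all tested genes, and overlapped in 8. The fitted change was positive for 14 of the 15 with a median log2 of 0.54, and the share of mitochondrial counts was 1.34 times that of the wild type. The lower mutant library (0.0769%) lay next to the higher wild-type library (0.0767%). In both cDC2 groups the library of replicate 3 held the higher level for 15 of 15 genes. Apart from the sparse mt-Atp8, the largest values were those of mt-Nd3 (0.447 ± 0.272 CPM in wild-type and 1.15 ± 0.299 CPM in mutant cDC2, SD, n = 2, log2 1.36 ± 0.44, adjusted p = 0.612) and mt-Rnr1 (3.33 ± 1.19 and 6.87 ± 3.86 CPM, log2 1.04 ± 0.40, adjusted p = 0.710). With no filter on low counts mt-Rnr1 and mt-Rnr2 were called higher in the mutant (edgeR adjusted p = 0.0127 and 0.00663). The settings other than the main fit called 0 to 199 of all genes in this comparison. The difference between the effects of the 2 genotypes (Zeb2 minus Irf8) was called for 0 of the 15 genes in edgeR and in DESeq2, with 2 at an unadjusted p under 0.05, mt-Rnr1 (-1.41 ± 0.55) and mt-Rnr2 (-0.74 ± 0.32), where 0.0194% of all tested genes were called and 7.62% had an unadjusted p under 0.05. Without wild-type cDC1 replicate 3 that difference was log2 -1.02 for mt-Nd4. With no filter on low counts the difference was called for mt-Rnr1 (-1.42, edgeR adjusted p = 0.0139). The settings other than the main fit called 1 to 306 of all genes for it.

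Nuclear genes that make and serve the respiratory chain were set beside these values, from lists that were chosen by function. Nuclear subunits of complexes I, III, IV and V were also higher in cDC1: 61 of 77 were called higher in wild-type cDC1 than in wild-type cDC2 and 0 lower, with a median log2 fold change of 0.82, where 14.2% of all tested genes were called higher and 15.9% lower. By complex these were 29 of 37 for complex I, 7 of 9 for complex III, 10 of 14 for complex IV and 15 of 17 for complex V. Between the mutants 48 were called higher and 1 lower, with a median of 0.68, beside 12.8% and 15% of all tested genes. The lower one was Cox6b2, a testis-enriched form of a cytochrome oxidase subunit (log2 -1.05, adjusted p = 0.031). The cytochrome oxidase subunit Cox7b stood at 94.7 ± 14.5 CPM in wild-type cDC1 against 24.1 ± 0.679 CPM in wild-type cDC2 (SD, n = 2), 3.93-fold apart (edgeR adjusted p = 9.52e-06), and the ATP synthase subunit Atp5e at 105 ± 23.7 and 32.7 ± 0.0347 CPM (3.22-fold, adjusted p = 8.05e-05). The complex I subunit Ndufb11 differed 2.79-fold and the cytochrome oxidase subunit Cox7a2 2.60-fold. The medians of the mitochondrial genes themselves were 2.14 and 1.65 in the same comparisons. All groups of the list stood above 0 in median, as the plot of list members shows.

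Some nuclear genes that act on mitochondrial RNA were higher in cDC1 as well. Of 19 genes for processing, polyadenylation and stability with a match, 7 were called higher in wild-type cDC1 and 0 lower, with a median log2 of 0.22, beside 14.2% and 15.9% of all tested genes. Elac2, the enzyme that cuts the 3′ ends of mitochondrial transfer RNAs out of the precursors, stood at 129 and 119.6 CPM in wild-type cDC1, at 125 and 137 CPM in Zeb2 mutant cDC1, 26.1 and 22.8 CPM in wild-type cDC2 and 24.4 and 23.3 CPM in Irf8 mutant cDC2. It was 5.08-fold higher in wild-type cDC1 (log2 2.35 ± 0.14, edgeR adjusted p = 7.58e-07) and 5.49-fold higher in the mutant pair (adjusted p = 5.74e-07). Rexo2, which degrades short RNA remnants in mitochondria, was 1.66-fold higher (68.2 ± 9.34 against 41.1 ± 3.56 CPM, SD, n = 2, adjusted p = 0.00423). Fastkd2, which binds mt-Rnr2 and mt-Nd6 RNA, was 1.80-fold higher (adjusted p = 0.00678, lost without wild-type cDC2 replicate 2 at 0.0616), and Fastk, which acts on mt-Nd6 RNA, 1.47-fold (adjusted p = 0.00815, lost without wild-type cDC2 replicate 2 at 0.0596 or replicate 3 at 0.0678). In the mutant pair 7 genes of this list were called higher and 1 lower, beside 12.8% and 15% of all tested genes. The lower one was Angel2 (log2 -0.40, adjusted p = 0.0416). There Fastkd1, a relative of Fastk, was 2.47-fold higher (adjusted p = 0.000321).

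Of 10 genes of mitochondrial transcription 2 were called higher in wild-type cDC1 and 0 lower (median log2 0.11), a share near the 14.2% of all tested genes called higher, so nothing is read from the count. These were the elongation factor Tefm, 2.96-fold (7.33 ± 0.713 against 2.47 ± 0.613 CPM, SD, n = 2, edgeR adjusted p = 0.00254), and Tfb1m, a methyltransferase of the small ribosomal RNA, 1.90-fold (adjusted p = 0.0327). The call of Tfb1m was lost without either wild-type cDC1 library, without wild-type cDC2 replicate 2 or without either Zeb2 mutant library, at adjusted p from 0.0503 to 0.261, and in the mutant pair it was not called (adjusted p = 0.540). There 2 were called higher, Tefm (2.54-fold, adjusted p = 0.00617, lost without Zeb2 mutant replicate 2 at 0.0714) and the sparse Mterf2. Mterf2 (3.29-fold, adjusted p = 0.0158) lost its call without Zeb2 mutant replicate 2 (0.0709), Zeb2 mutant replicate 3 (0.0805) or Irf8 mutant replicate 3 (0.0846).

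Of 12 genes of mitochondrial DNA replication 1 was called higher in wild-type cDC1 and 1 lower, no more than the 14.2% and 15.9% of all tested genes. Tk2, the kinase that salvages pyrimidine nucleosides for mitochondrial DNA, stood at 34.7 ± 3.10 CPM in wild-type cDC1 against 67.6 ± 0.375 CPM in wild-type cDC2 (SD, n = 2, log2 -0.96 ± 0.13, edgeR adjusted p = 0.000294), and its difference between the mutants was log2 -0.97. Ssbp1, which coats single-stranded mitochondrial DNA, was 1.64-fold higher in wild-type cDC1 (adjusted p = 0.0173), a call lost without wild-type cDC1 replicate 2 (0.139) or either wild-type cDC2 library (0.102 and 0.0672).

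Some regulators that switch on nuclear genes for mitochondria were lower in cDC1. Of 7 such genes 4 were called lower in wild-type cDC1 than in wild-type cDC2 and 0 higher, with a median log2 of -0.55, beside 15.9% of all tested genes called lower. Gabpa, Esrra and Pprc1 did not pass the test. The coactivator Ppargc1a stood at 0 and 0.171 CPM in wild-type cDC1, at 0 and 0.111 CPM in Zeb2 mutant cDC1, 6.43 and 4.30 CPM in wild-type cDC2 and 9.51 and 5.30 CPM in Irf8 mutant cDC2. Its cell types did not overlap (edgeR adjusted p = 0.0011 in the wild types). Ppargc1a entered the test only through cDC2 libraries, where it was high, which limits its call here and in the mutant pair. Gabpb1, a subunit of nuclear respiratory factor 2, stood at 28.8 ± 4.97 CPM in wild-type cDC1 against 72.3 ± 2.00 CPM in wild-type cDC2 (SD, n = 2, log2 -1.32 ± 0.15, adjusted p = 6.82e-05). Nrf1, nuclear respiratory factor 1, stood at 51.1 ± 0.449 and 74.6 ± 4.97 CPM (log2 -0.55 ± 0.13, adjusted p = 0.00964), a call lost when the length trend of each library was removed (adjusted p = 0.313) or without wild-type cDC2 replicate 2 (0.133). Ppargc1b, a relative of Ppargc1a, was lower in wild-type cDC1 (log2 -2.05 ± 0.59, adjusted p = 0.0235), a call lost without wild-type cDC1 replicate 2 (0.117), without wild-type cDC2 replicate 3 (0.335) or with only the 4 libraries compared (0.052). In the mutant pair 3 were called lower, Ppargc1a, Gabpb1 and Nrf1, beside 15% of all tested genes, and the median was -0.18. There Ppargc1b had a log2 of 0.95, Esrra 0.071 and Gabpa 0.0049, none of which passed. The call of Nrf1 in that pair was lost with library totals (adjusted p = 0.115), with no filter on low counts (0.112), with the length trend removed (0.303), with the replicate block (0.0657) and without 6 of the 8 libraries in turn (0.1 to 0.295). Between each mutant and its wild type 0 genes of these lists were called.

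Signs of handling, RNA quality and other cells also differed between some groups, and their part in the results above was not tested. The 10 immediate-early genes, which respond to cell handling, summed to 13049 and 14782 CPM in wild-type cDC1 and 21679 and 20956 CPM in wild-type cDC2. In the mutants they summed to 10174 and 9652 CPM in Zeb2 mutant cDC1 and 12098 and 15807 CPM in Irf8 mutant cDC2. The cell types thus did not overlap in either comparison. All 10 had a negative fitted change in each mutant against its wild type, and 0 of these changes were called. The 4 nuclear-retained RNAs summed to 1051 to 1798 CPM in cDC1 and 1374 to 1800.0 CPM in cDC2, with wild-type cDC1 replicate 2 at 1798 CPM and replicate 3 at 1051 CPM. The 6 monocyte and macrophage markers summed to 45.4 to 68.7 CPM in cDC1 and 317 to 380.5 CPM in cDC2, and the 4 markers of plasmacytoid dendritic cells to 66.8 to 72.3 and 115 to 139 CPM. Most of the first sum in wild-type cDC2 was Adgre1 (mean 215 CPM). Only Ly6c2 of these was higher in wild-type cDC1 (means 9.03 against 3.65 CPM). Most of the second sum in wild-type cDC2 was Tcf4 (mean 101 CPM), while Bst2 was higher in wild-type cDC1 (means 37.6 against 27.5 CPM). The 5 B cell markers summed to at most 38.4 CPM, the 5 T cell markers to at most 66.9 CPM and the 4 NK cell markers to at most 13.8 CPM in any library. Beside the mutant comparisons, the 4 neutrophil markers summed to 42.9 and 67.2 CPM in Zeb2 mutant cDC1 and 24.6 and 24.8 CPM in Irf8 mutant cDC2, against 0.485 to 10.3 CPM in the wild types. The 5 erythroid and platelet markers summed to 52.2 CPM in Irf8 mutant cDC2 replicate 2 and to 3.14 to 11.6 CPM in the other 7 libraries. None of these markers was at 0 in all libraries.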

How the data were processed

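Per the labels' protocols, RNA of sorted spleen cells was taken with the NucleoSpin RNA XS kit, and the SMARTer Ultra Low kit made cDNA from 10 ng of it. That kit primes on poly(A), so RNAs without a tail are counted poorly. The tools named in the submitters' processing notes are STAR, Salmon, Subread, featureCounts and bcl2fastq, and the builds GRCm38 and mm10, with no word on strand or on reads that match several genes. The deposited counts are whole numbers for each gene. The deposited CPM and FPKM columns were checked and follow from the counts and gene lengths. The deposited TPM column was not used.

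Symbols came from GENCODE M21 (55227 of 55487 IDs), whose coordinates and lengths matched the files for all 37 mitochondrial genes. The counts went into edgeR 4.0.16 under R 4.3.3 (filterByExpr by group with a minimum count of 10, TMM, robust quasi-likelihood, 1 coefficient per group over all 8 libraries, 4 residual degrees of freedom), after a test on simulated data. DESeq2 1.42.0 was an alternative. A fold is the mean TMM-normalised CPM of one group over that of the other. Nuclear copies were found with blastn 2.17.0 among GENCODE transcripts of other chromosomes. The genes and lists were chosen with earlier results of these data known. Named were every mitochondrial protein and ribosomal RNA gene, the 6 highest transfer RNA genes and up to 4 called members per list in the 2 cell type comparisons. Cox6b2, Angel2, Gabpa, Esrra, Pprc1 and copies other than those of the list were named after their values were seen. Differences between replicate 2 and replicate 3 correlated at -0.0255 to -0.00147 between groups over the tested genes. No pairing by replicate number was seen there, but such a correlation cannot exclude it.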

Additional observations from a re-analysis of the deposited data

How the results depend on the processing

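Between wild-type cDC1 and cDC2, 13 protein and ribosomal RNA genes were called in 17 of 17 other fits (9 settings, 8 left-out libraries). Between the mutants 11 of them were called in 17 of 17, and mt-Nd2 and mt-Rnr1 in 14. The counts below include mt-Tp, which entered the test only through cDC1; they were 14 between the wild types, and 12 to 14 between the mutants without 1 library. With no filter on low counts 2 genes were called between Irf8 mutant and wild-type cDC2 (mt-Rnr1 and mt-Rnr2) and 1 in the difference of effects (mt-Rnr1); without 1 library the Zeb2 comparison and the difference of effects gave 0 to 1 call, the 1 being mt-Nd4 without wild-type cDC1 replicate 3. The cause was not tested. With the replicate number as a block the 5 comparisons (wild types, Zeb2, Irf8, mutants, difference of effects) gave 14, 0, 0, 14 and 0 mitochondrial genes, and the block ended no call of these genes. It ended the call of Tfb1m between the wild types (adjusted p = 0.0529) and those of Nrf1 (0.0657) and Ssbp1 (0.0533) between the mutants, while over all genes the 5 comparisons gave 5656, 13, 0, 5185 and 1 calls.

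Signs that changed were of values that had not passed the test. For Zeb2 mutant minus wild-type cDC1, log2 fold changes were 0.00016 (library totals) and 0.017 (length trend removed) for mt-Co2, 0.0064 (RLE factors and DESeq2), 0.038 (totals), 0.0087 (only the 4 libraries compared) and 0.068 (length) for mt-Nd1, 0.0011 (length) for mt-Rnr2 and 0.017 (totals) for mt-Tp. With the copies' counts added, a choice made after seeing the data, mt-Nd4l gave 0.30 in the Irf8 comparison and -0.49 in the difference of effects. In that difference mt-Co1 gave 0.0027 (RLE factors and DESeq2) and 0.094 (length).

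Without 1 library in turn, the Zeb2 comparison ran from -0.11 to 0.051 for mt-Co2, -0.15 to 0.22 for mt-Nd1, -0.60 to 0.66 for mt-Nd2, -0.66 to 0.20 for mt-Nd4, -0.58 to 0.29 for mt-Nd4l, -0.42 to 0.38 for mt-Nd6, -0.21 to 0.12 for mt-Rnr2 and -0.13 to 0.15 for mt-Tp. The Irf8 comparison ran from -0.23 to 2.95 for mt-Atp8, -1.32 to 0.32 for mt-Nd4l and -0.076 to 0.63 for mt-Tp. The difference of effects ran from -0.78 to 0.082 for mt-Atp6, -2.23 to 0.94 for mt-Atp8, -0.21 to 0.29 for mt-Co1, -0.66 to 0.16 for mt-Co3, -1.12 to 0.11 for mt-Nd2, -0.39 to 1.25 for mt-Nd4l and -0.63 to 0.071 for mt-Tp.

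Over all genes, the Zeb2 comparison called 14 genes, 2 to 477 under other settings (293 in DESeq2) and 6 to 1078 without 1 library. The Irf8 comparison called 0, 0 to 199 (151 in DESeq2) and 0 to 28, and the difference of effects 4, 1 to 306 (163 in DESeq2) and 0 to 705. The wild-type comparison called 6219, and 3810 to 6805 without 1 library. Counts per library were at most 42 for mt-Atp8 and 29 for mt-Nd4l, which limits their precision.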
